A study of Homo sapiens with 12 samples.

Results

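The endoplasmic reticulum (ER) chaperones and unfolded protein response genes described here are 10 genes taken by symbol from the gene-level table, HSPA5, HSP90B1, DNAJB9, HERPUD1, XBP1, SDF2L1, CRELD2, MANF, HYOU1 and PDIA4, out of 36459 gene symbols. All 10 were found, and all 10 passed the filter on low counts. The RNA came from HEK293 cells, a human embryonic kidney cell line, in 4 groups of 3 libraries: vehicle, oleic acid (a monounsaturated fatty acid), FAC (ferric ammonium citrate, a soluble source of ferric iron that the series' design gives as the inducer of ferroptosis, an iron-dependent form of cell death) and oleic acid with FAC. The labels give no dose, no exposure time and no control with ammonium or citrate alone, and do not say whether the 3 libraries of a group came from separate cultures, so each p-value measures the spread between these libraries, which may be technical. Every library came from this 1 line, which is not a professional secretory cell type.

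The unfolded protein response is the programme by which a cell adjusts the folding capacity of its ER. The sensor IRE1 removes a short intron from XBP1 mRNA in the cytoplasm and so lets the mRNA encode an active transcription factor, the sensor ATF6 is cut in the Golgi to release another, and the sensor PERK phosphorylates a translation initiation factor and raises the transcription factor ATF4. XBP1 and ATF6 act on promoters of ER chaperones, folding enzymes and degradation factors through short motifs known as the ER stress elements, and the 10 genes are commonly read as targets of these arms.

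The XBP1 mRNA itself carries the switch, so its site is shown first. It lies on chromosome 22 in exon sequence of XBP1, on the minus strand of GRCh38 (chr22:28796104-28796169), as read from the transcript sequences of GENCODE release 29. The capitals mark 26 bases, at positions 28796124 to 28796149, whose loss gives the spliced form that IRE1 makes. A repeat at the ends lets 7 placements of the 26 bases give the same spliced sequence. The placement shown is cut after the last G of CNGCAG at both ends. It is 1 of the 7 and is not given as the exact cut position of IRE1.
XBP1 unspliced: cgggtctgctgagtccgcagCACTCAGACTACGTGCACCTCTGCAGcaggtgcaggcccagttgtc
XBP1 spliced: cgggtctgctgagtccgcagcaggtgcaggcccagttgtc
The printed sequences differ only in this stretch, and the reading frame downstream of it shifts when it is lost.

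Promoter sequences were found in RefSeq (GRCh38.p14) for all 10 genes, and each window ran from 250 bases before to 50 bases after the gene's start as set for these windows. Upstream is counted from that start, which differs from the GENCODE start in some genes. For HSP90B1 and DNAJB9 the 250 bases lie wholly inside the gene as GENCODE places it (from 103930107 and from 108569568). For HERPUD1 (from 56932048) they lie partly inside it. The windows were searched on both strands for ERSE (CCAAT, then 9 bases of any kind, then CCACG), ERSE-II (ATTGG, then 1 base of any kind, then CCACG), UPRE (TGACGTGG) and the E-box CACGTG. The 250 upstream bases of 4 genes are printed, with every match in capitals, because HSPA5 is the textbook target with an ERSE, HSP90B1 and HERPUD1 carry an ER stress element with an E-box, and DNAJB9, the only gene of the 10 called below without a replicate block, has only E-boxes.
HSPA5, chr9:125241344-125241593, minus strand: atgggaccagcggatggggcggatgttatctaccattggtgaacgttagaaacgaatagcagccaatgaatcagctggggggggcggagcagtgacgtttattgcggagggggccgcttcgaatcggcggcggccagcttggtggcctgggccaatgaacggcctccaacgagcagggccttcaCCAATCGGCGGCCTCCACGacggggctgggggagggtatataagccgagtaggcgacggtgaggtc
HSP90B1, chr12:103930160-103930409, plus strand: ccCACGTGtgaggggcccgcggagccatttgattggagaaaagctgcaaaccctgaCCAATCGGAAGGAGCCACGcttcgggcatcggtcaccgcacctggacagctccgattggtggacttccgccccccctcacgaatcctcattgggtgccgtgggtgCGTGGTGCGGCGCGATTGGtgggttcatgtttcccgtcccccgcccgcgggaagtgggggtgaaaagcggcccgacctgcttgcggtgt
DNAJB9, chr7:108569624-108569873, plus strand: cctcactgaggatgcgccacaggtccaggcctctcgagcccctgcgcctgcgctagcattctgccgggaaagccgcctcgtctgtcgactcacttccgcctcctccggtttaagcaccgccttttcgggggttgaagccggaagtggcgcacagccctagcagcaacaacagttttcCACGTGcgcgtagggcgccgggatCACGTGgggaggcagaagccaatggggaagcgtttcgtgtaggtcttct
HERPUD1, chr16:56931892-56932141, plus strand: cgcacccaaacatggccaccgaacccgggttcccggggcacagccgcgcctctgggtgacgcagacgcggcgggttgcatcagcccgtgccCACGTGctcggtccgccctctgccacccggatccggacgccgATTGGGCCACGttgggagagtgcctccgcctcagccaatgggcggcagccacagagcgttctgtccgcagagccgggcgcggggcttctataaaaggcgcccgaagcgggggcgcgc
ERSE was present in HSPA5, HSP90B1, XBP1 and CRELD2, against 27 of all 35116 promoter windows (0.0769%). ERSE-II was present in HERPUD1, SDF2L1 and HYOU1, against 19 windows (0.0541%), and in HYOU1 a UPRE (0.729% of all windows) overlapped one of its ERSE-II copies. The E-box was present in HSP90B1, HERPUD1 and, in 2 copies, DNAJB9, against 7.26% of all windows. XBP1 and PDIA4 have 2 windows each in the table. MANF and PDIA4 held none of these 4 motifs, while CCAAT on its own was found in all 10 and in 34.6% of all windows. These are matches of letters and were not measured as binding sites, and no count of motifs was tested against the expression values.

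Levels below are CPM, estimated counts divided by the library total after scaling by edgeR's trimmed mean of M-values (TMM), and fold changes, standard errors (SE) and adjusted p-values are from edgeR's quasi-likelihood test over 14209 genes with Benjamini-Hochberg adjustment, where a gene is called at an adjusted p under 0.05. The libraries held 14098216 to 18717397 estimated counts, so that 3 counts corresponded to 0.160 to 0.213 CPM. Mitochondrial transcripts took 3.33% to 7.50% of counts in 11 libraries and 12.1% in the third library of oleic acid with FAC. That library and the third oleic acid library stood apart on the first principal component, which held 32.8% of the variance, and their deviations from the group mean fell with transcript length (Pearson r = -0.39 and -0.52 across genes, which are not independent replicates). All 8 HEK293 markers exceeded 1 CPM in every group, and their sum, led by VIM, ranged from 942 to 1279 CPM in vehicle, 973 to 1414 CPM with oleic acid, 1014 to 1428 CPM with FAC and 1337 to 1962 CPM with both, a shift whose part in the results was not tested. Of the defining markers of other cells, HBB, JCHAIN, PRSS1 and INS were at 0 in all libraries, and the fibroblast gene COL1A1 (15.6 ± 1.95 CPM in vehicle, SD, n = 3) was the most abundant, followed by CD68 (3.51 ± 0.883), POU2AF1 (1.28 ± 0.513), ESAM (0.991 ± 0.438) and APOA1 (0.0950 ± 0.0609).

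Across all 12 libraries the genes covered a wide range of levels. Per kilobase of transcript, HSP90B1 was the most abundant at 263 ± 40.4 CPM per kb (SD, n = 12), followed by HSPA5 at 109 ± 14.1, PDIA4 at 56.8 ± 4.48, MANF at 42.3 ± 4.49, XBP1 at 30.3 ± 3.43 and HYOU1 at 24.6 ± 3.55. Neighbours were then close: SDF2L1 at 19.4 ± 5.13, CRELD2 at 17.7 ± 3.48 and HERPUD1 at 16.8 ± 1.6 CPM per kb overlapped in their spread, and DNAJB9 was lowest at 6.02 ± 1.45. For HYOU1 and PDIA4 most estimated counts sat on transcripts outside GENCODE release 29, so their lengths (4529 and 2903 bases) are those of the longest protein-coding transcript there and their places in this order are approximate.

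With FAC, 1 of the 10 genes rose and none fell by edgeR (4 had an unadjusted p under 0.05, DESeq2 called 2 higher and limma-voom 1, with none lower in either). Of all genes, 3344 of 14209 had an unadjusted p under 0.05. DESeq2 called 1850 of 13831 and limma-voom 1263 of 14209. With the replicate number as a block 3 were called, all higher, DNAJB9 (adjusted p = 0.00106), HSP90B1 (0.0348) and HERPUD1 (0.0393). The count over all 14209 genes went from 1244 to 2211 with the block. Of 18 same-numbered pairs of libraries 13 correlated over 0.1, so by this cut the numbers paired only some of the groups. Even so, 11 of the 12 libraries correlated best with a library of their own number. The gene called without the block was DNAJB9, which encodes ERdj4, an ER J-domain co-chaperone of HSPA5 that hands misfolded proteins to degradation and restrains IRE1. Averaged over cells with and without oleic acid, the 6 libraries with FAC were compared with the 6 without. In that comparison 8.76% of all tested genes were called, 3.27% higher and 5.48% lower, so that 1 of 10 is close to the share over all genes. The median log2 fold change of the 10 genes was 0.05, against 0.00 over all tested genes.

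DNAJB9 lies on chromosome 7 (GRCh38, 108569568 to 108574850, plus strand, per GENCODE release 29). It was at 16.1, 13.1 and 13.0 CPM in the vehicle libraries and at 11.33, 11.97 and 11.36 CPM with oleic acid. With FAC it was at 18.2, 16.9 and 21.5 CPM, and with oleic acid and FAC at 20.8, 19.1 and 20.4 CPM. The lowest library with FAC was above the highest library without it, a separation that 2.80% of all tested genes showed in that direction. The averaged difference was 0.61 on the log2 scale (SE 0.093, edgeR adjusted p = 0.00168), or 1.53-fold with a 95% interval of 1.33 to 1.76. In bulk RNA a higher level in each cell and more cells at a high level cannot be told apart. The difference passed the threshold under all 20 alternatives run, with adjusted p from 2.7e-07 to 0.00787.

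Within the oleic acid groups, DNAJB9 was 1.74-fold higher with FAC (95% interval 1.43 to 2.12, log2 fold change 0.80, SE 0.13, edgeR adjusted p = 0.0106), the only call among the 10 genes, where 2.21% of all genes (314) were called. In this comparison the replicate numbers paired the libraries, and with the number as a block DNAJB9 was still called (adjusted p = 0.00675) while 740 genes of all were. This call did not hold when the first oleic acid library was left out (adjusted p = 0.0559) or when only the 6 libraries compared entered the fit (0.0935), while its log2 fold change stayed between 0.77 and 0.84 under all 21 alternatives. Against vehicle, the log2 difference of DNAJB9 with FAC alone was 0.43 (SE 0.13, adjusted p = 0.160) and with oleic acid and FAC it was 0.52 (SE 0.13, adjusted p = 0.0517), with no overlap of libraries in either comparison, where 10.0% and 13.8% of all genes were likewise higher without overlap. These comparisons called 0 of the 10 genes by edgeR, against 1.19% and 3.07% of all genes. An unadjusted p under 0.05 was reached by 3 and 2 of the 10, against 1715 and 3169 of all 14209 genes. DESeq2 called 0 and 1 of the 10, against 498 of 14256 and 1261 of 12562 genes. limma-voom called 0 of the 10 in both, against 172 and 410 of 14209 genes. The comparisons share their vehicle libraries. The FAC effect on DNAJB9 with oleic acid minus that without was 0.37 on the log2 scale, with a 95% interval of -0.03 to 0.77 and an adjusted p of 1.00.

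**Figure D1:**
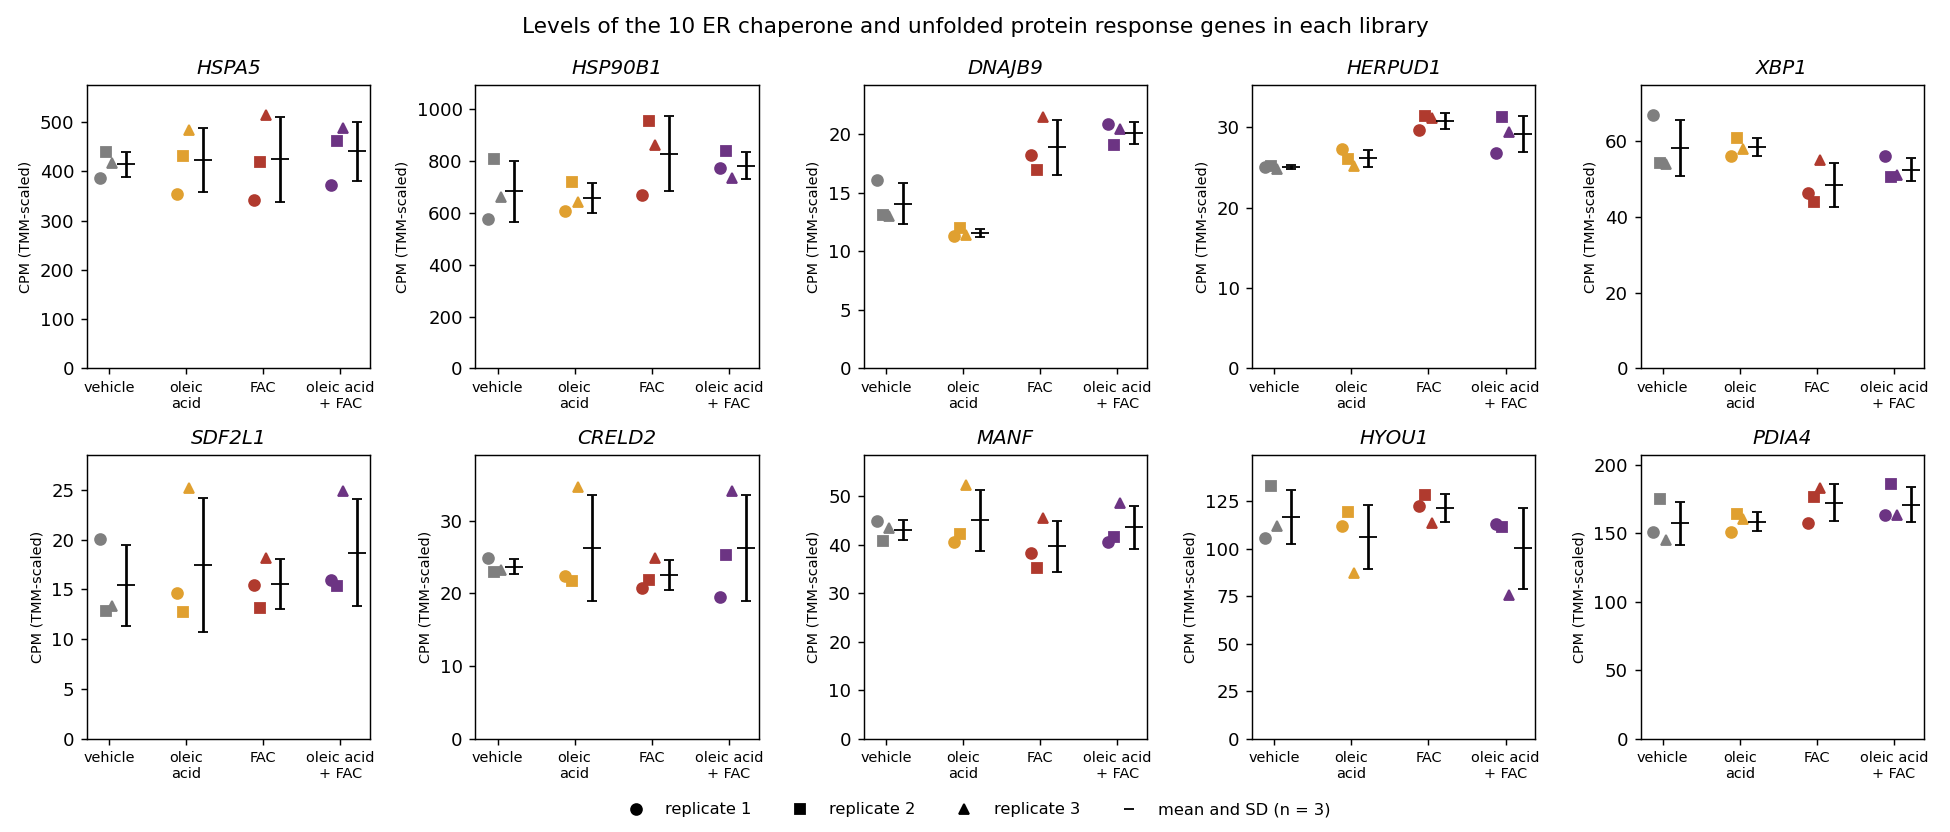
Level of each of the 10 genes in every library (y axes, TMM-scaled CPM, each from 0) by group (x axis), with symbols for the replicate number and the mean and SD of 3 libraries beside them. DNAJB9 lies at 16.9 to 21.5 CPM in the 6 libraries with FAC and at 11.3 to 16.1 CPM in the 6 without, while SDF2L1, CRELD2 and HYOU1 spread most within the oleic acid groups.

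HERPUD1, which encodes a membrane protein that gathers the ER degradation machinery, had the next lowest adjusted p after DNAJB9 in the FAC average and was called only under some of the alternatives. Its vehicle libraries were at 25.1, 25.2 and 24.8 CPM and its oleic acid libraries at 27.3, 26.1 and 25.2 CPM. With FAC it was at 29.7, 31.4 and 31.2 CPM, above every vehicle library, and with oleic acid and FAC at 26.9, 31.3 and 29.5 CPM, of which the lowest fell under the highest oleic acid library. The averaged log2 fold change was 0.23 (SE 0.071, edgeR adjusted p = 0.0650), with an interval of 1.05 to 1.30 in fold. The same difference passed with DESeq2 (adjusted p = 0.0135) and with the replicate block in edgeR (0.0393).

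The abundant chaperones of the ER lumen showed small differences with wide spreads. HSPA5, the ER member of the HSP70 family (BiP) and the usual readout of the response, was at 386.8, 438.2 and 417.7 CPM in vehicle and at 353.6, 430.2 and 484.2 CPM with oleic acid. It was at 341.4, 418.0 and 514.2 CPM with FAC and at 372.4, 461.7 and 487.4 CPM with both. The groups overlapped throughout, and the averaged FAC effect was 1.03-fold with a 95% interval of 0.867 to 1.23 (edgeR adjusted p = 0.850). The interval holds changes of that size in both directions and lies below the 1.53-fold measured for DNAJB9.

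HSP90B1, the ER member of the HSP90 family (GRP94), was at 576.7, 809.3 and 662.7 CPM in vehicle and at 608.1, 720.4 and 640.0 CPM with oleic acid. It was at 668.3, 952.5 and 863.5 CPM with FAC and at 772.1, 837.2 and 735.4 CPM with both. The libraries with oleic acid and FAC lay above those with oleic acid alone, as did 7.85% of all genes, whereas FAC and vehicle libraries overlapped. The averaged log2 fold change was 0.27 (SE 0.11, edgeR adjusted p = 0.170), 1.20-fold with an interval of 1.02 to 1.42, and with the replicate block it was called (adjusted p = 0.0348).

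HYOU1, a large HSP70-like nucleotide exchange factor for HSPA5, ranged from 75.8 to 133.0 CPM, and PDIA4, a protein disulfide isomerase, from 145.4 to 186.1 CPM. Their averaged FAC effects were 0.992-fold (95% interval 0.833 to 1.18) and 1.09-fold (0.968 to 1.22), neither of them called by edgeR (adjusted p = 0.971 and 0.373). PDIA4 was close to HSP90B1 from library to library (Pearson r of log2 CPM 0.868 over 12 libraries, which share depth scaling and treatment groups).

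**Figure D2:**
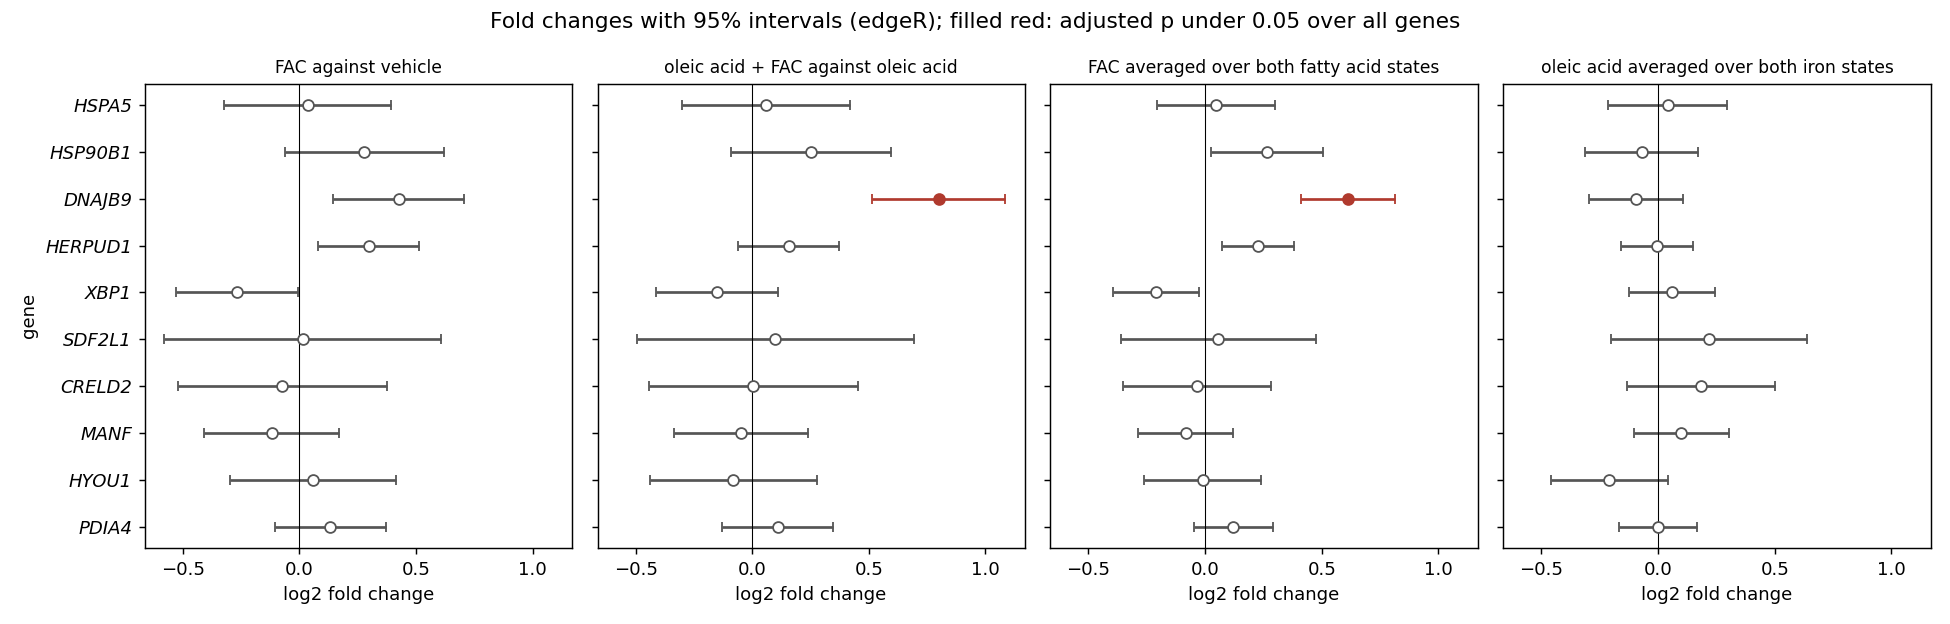
Log2 fold change of each gene (x axis) with its 95% interval from edgeR, in 4 comparisons; filled red points passed an adjusted p of 0.05 over all genes. Only DNAJB9 is filled, at 0.80 for FAC in oleic acid cells and at 0.61 for the FAC average, and every interval for the oleic acid average crosses 0.

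The 3 small secreted or ER-retained genes of the set, SDF2L1 (a partner of ER J-domain proteins), CRELD2 (a cysteine-rich ER protein) and MANF (a nucleotide-exchange regulator of HSPA5 that can also be secreted), did not differ with FAC beyond their spread. SDF2L1 was at 20.1, 12.8 and 13.3 CPM in vehicle, 14.6, 12.7 and 25.2 with oleic acid, 15.4, 13.1 and 18.1 with FAC and 15.9, 15.3 and 24.8 with both. CRELD2 was at 24.9, 22.9 and 23.2 CPM in vehicle, 22.4, 21.7 and 34.7 with oleic acid, 20.8, 21.9 and 24.8 with FAC and 19.5, 25.4 and 34.1 with both. In both genes the third library of each oleic acid group was the highest of its group. MANF lay between 35.3 and 52.3 CPM in all libraries. The averaged FAC effects were 1.04-fold for SDF2L1 (95% interval 0.778 to 1.39), 0.977-fold for CRELD2 (0.784 to 1.22) and 0.944-fold for MANF (0.820 to 1.09).

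In the same pair of libraries, the third of oleic acid and the third of oleic acid with FAC, SDF2L1, CRELD2 and MANF were high and HYOU1 was low. Against the mean of the other libraries of their group, they were higher by 0.89 and 0.67 on the log2 scale for SDF2L1 (864 bases), by 0.66 and 0.61 for CRELD2 (1395 bases) and by 0.34 and 0.24 for MANF (1013 bases). HYOU1 (4529 bases) was lower in them, with differences of -0.41 and -0.57. The differences did not follow length throughout: HSPA5 (3908 bases) had 0.31 and 0.23, HSP90B1 (2801 bases) had -0.05 and -0.13 and PDIA4 (2903 bases) had 0.03 and -0.09. The third FAC library had the same signs for the first 4 of these genes, with 0.35 for SDF2L1, 0.22 for CRELD2, 0.31 for MANF and -0.14 for HYOU1, and had 0.44 for HSPA5. Without the third libraries of oleic acid and of oleic acid with FAC the oleic acid average moved from 0.22 to -0.09 for SDF2L1, from 0.18 to -0.06 for CRELD2 and from -0.21 to -0.07 for HYOU1, and none of these values was called. Without them the averaged FAC effect on DNAJB9 was close to its value with them (log2 fold change 0.61, edgeR adjusted p = 0.00210).

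**Figure D3:**
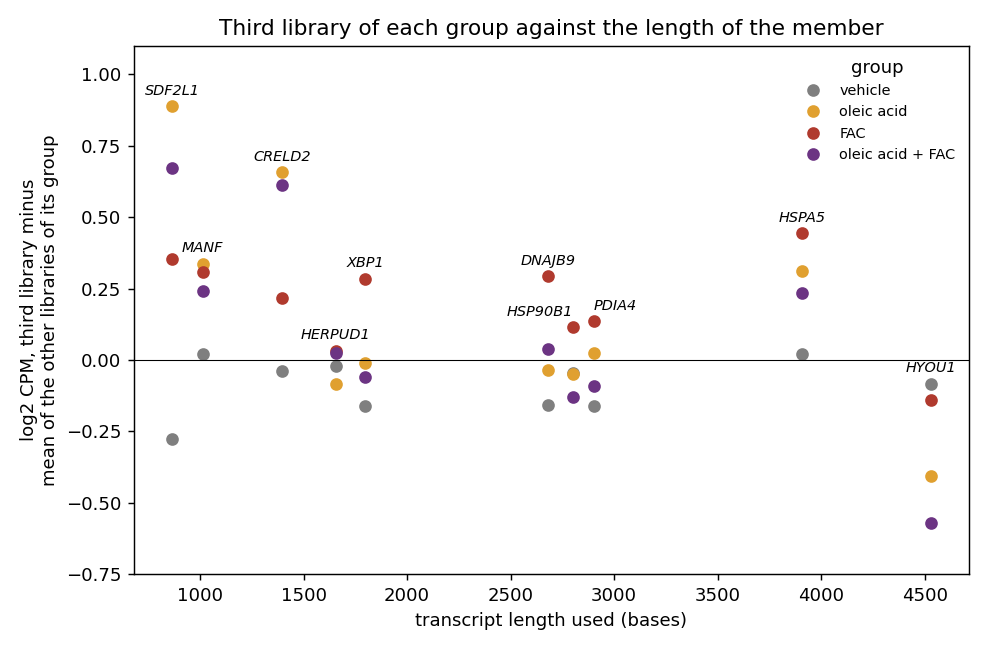
Log2 CPM of the third library of each group minus the mean of the group's other libraries (y axis) against the transcript length used for each gene in bases (x axis), coloured by group. SDF2L1, CRELD2 and MANF lie above 0 and HYOU1 below 0 in the oleic acid, FAC and oleic acid + FAC groups.

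Oleic acid gave no call among the 10 genes, with or without FAC. None of the 14209 genes was called in oleic acid against vehicle, in oleic acid with FAC against FAC, in the oleic acid average or in the test of whether the FAC effect differed with oleic acid (0% each, edgeR). Over all genes an unadjusted p under 0.05 was reached by 118, 576, 617 and 116 genes in these comparisons, DESeq2 called 0, 1, 3 and 0, and limma-voom called 0 in each. None of the 10 genes had an unadjusted p under 0.05 there. In oleic acid against vehicle, the largest log2 difference of the 10 was that of DNAJB9, -0.28 (95% interval -0.57 to 0.007). For the 10 genes the oleic acid average ran from -0.21 (HYOU1, 95% interval -0.46 to 0.04) to 0.22 (SDF2L1, -0.20 to 0.64) on the log2 scale. For HSPA5 it was 1.03-fold, with an interval of 0.863 to 1.23.

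XBP1, the transcription factor of the IRE1 arm, was at 66.9, 54.3 and 53.9 CPM in vehicle and 56.2, 60.9 and 58.1 CPM with oleic acid. It was at 46.4, 44.0 and 55.0 CPM with FAC and 56.1, 50.5 and 51.0 CPM with both. The libraries with oleic acid and FAC lay just below those with oleic acid, as did 10.3% of all genes, while FAC and vehicle overlapped. The averaged log2 fold change was -0.21 (SE 0.085, edgeR adjusted p = 0.156), 0.865-fold with an interval of 0.761 to 0.983.

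Transcript-level estimated counts split XBP1 into forms with and without the 26 bases printed above. Of the counts on these forms, the spliced ones made up 9.61%, 7.54% and 9.69% in the vehicle libraries and 5.94%, 9.03% and 27.9% with oleic acid. They made up 3.59%, 49.6% and 37.5% with FAC, and 0%, 43.4% and 36.8% with oleic acid and FAC, where the limit of 3 counts for a count of 0 (of 965) is 0.311%. The highest and the lowest share of all 12 libraries were both in groups with FAC, and the groups overlapped. Exact 95% binomial intervals were 46.1% to 53.1% for the second FAC library and 2.33% to 5.25% for the first. These intervals treat every estimated count as an observed read of its form, so they do not give the counting error of the share. How far the libraries of a group differed beyond counting error was not tested.

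Over the 6 libraries with FAC the spliced share was 28.5% ± 21.2 (SD, n = 6), and over the 6 without it was 11.6% ± 8.12 (n = 6), a difference of 16.9 percentage points that did not exceed the spread (two-sided exact permutation test, p = 0.117, smallest possible 0.00216). Within FAC against vehicle the difference was 21.3 points (exact permutation p = 0.4), and within the oleic acid groups it was 12.4 points (p = 0.5), where 3 against 3 libraries allow no p under 0.1. The result depended on the libraries at or near 0: without the first FAC library the 6-library difference was 21.8 points (exact permutation p = 0.0390), and without the first library of oleic acid with FAC it was 22.5 points (p = 0.0281). Adjusted by Benjamini-Hochberg over the 3 comparisons, the p-values were 0.351, 0.5 and 0.5 in the order given.

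The forms are near-identical, and the estimates moved between them in whole blocks. The spliced counts sat on a transcript of 1794 bases and on one of 1131 bases, and 1 of the 2 was at 0 in 8 of the 12 libraries, with both at 0 in 1. For example, the longer held 217 counts and the shorter 0 in the third oleic acid library, against 0 and 102 in the second. Reads outside the junction fit either form, so the share is an output of the estimation model and was not a direct count of junction reads.

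**Figure D4:**
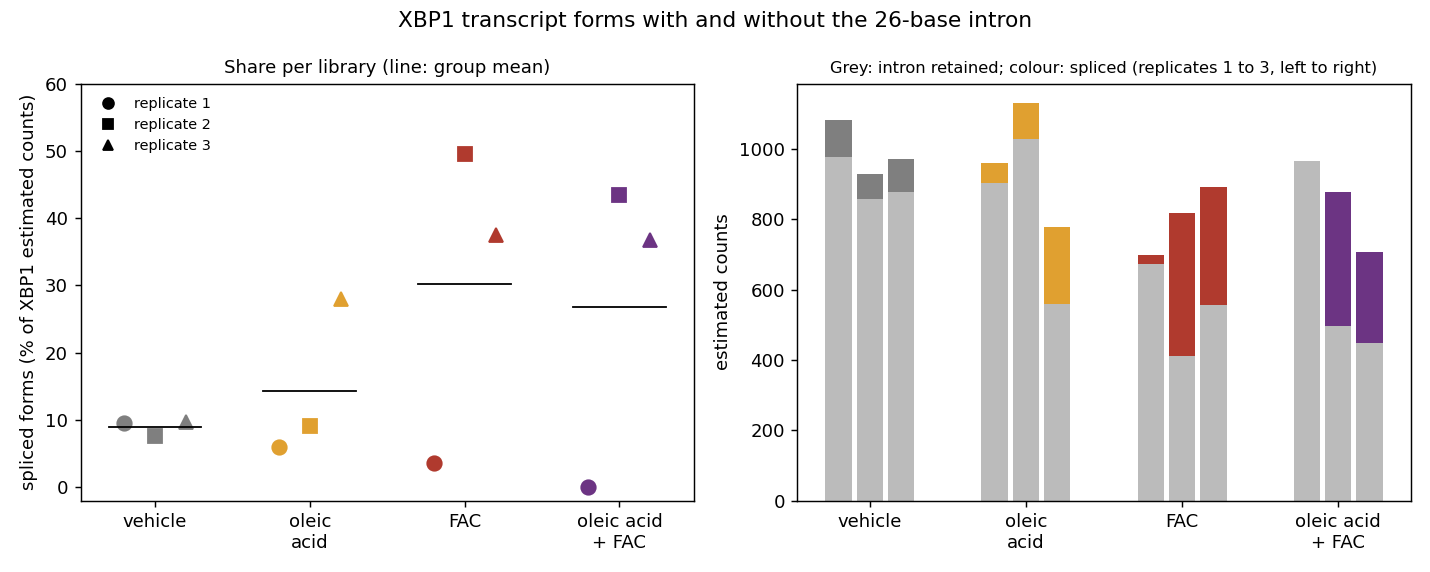
Left, spliced share of XBP1 estimated counts (y axis, %) in each library by group, with the group mean as a line; right, the estimated counts themselves, grey for forms that retain the 26 bases and coloured for spliced forms. The vehicle libraries lie between 7.54% and 9.69%, and the FAC libraries at 3.59%, 49.6% and 37.5%.

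The 10 genes did not vary as a block across the libraries. Of their 45 pairs, 11 had a Pearson correlation of log2 CPM over 0.5 and 19 were negative, with a median of 0.07 over 12 libraries that share treatments and depth scaling. The closest pairs were HSP90B1 with PDIA4 (0.868) and SDF2L1 with CRELD2 (0.838), and the most opposed was SDF2L1 with HYOU1 (-0.887). The genes outside the set whose level followed the mean of the 10 most closely were PDIA3 (r = 0.902), ADA (0.901), TOR1AIP2 (0.893), MCRIP2 (0.893) and DHRS3 (0.879), with r over the same 12 libraries.

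The wider pathway was described by lists of other genes, each read against the 8.76% of all genes called in the FAC average. Of 27 other ER chaperones and folding enzymes, none was called by edgeR, 21 were above 0 and their median log2 fold change was 0.11. ERP29, an ER lumen protein of the disulfide isomerase family, was nearest to the threshold (0.30, SE 0.087, adjusted p = 0.0535). None of the 32 genes of ER translocation, glycosylation and early secretion was called (median 0.10), nor any of the 19 sensors and transducers (median 0.04), among them ERN1, which encodes IRE1 (0.35, SE 0.16, adjusted p = 0.200). In these 3 lists 4, 6 and 4 genes had an unadjusted p under 0.05, against 3344 of all 14209 genes. The counts called by DESeq2 were 1, 1 and 2, against 1850 of 13831 genes. By limma-voom they were 0, 0 and 0, against 1263 of 14209 genes.

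Of 22 genes of ER-associated degradation, 1 rose and 2 fell. HERPUD2, a paralogue of HERPUD1, had means of 21.9 ± 2.18 CPM in vehicle and 21.8 ± 3.16 with oleic acid, against 33.3 ± 0.701 with FAC and 30.8 ± 1.78 with both (SD, n = 3), and rose by 0.55 on the log2 scale (SE 0.089, edgeR adjusted p = 0.00239). UBE2G2, a ubiquitin-conjugating enzyme of this pathway, fell by 0.42 (SE 0.068, adjusted p = 0.00239), and NPLOC4, a cofactor of the VCP extraction motor, fell by 0.36 (SE 0.091, adjusted p = 0.0279). Among 13 genes of the PERK and ATF4 branch, PPP1R15B, a subunit of the phosphatase that reverses PERK signalling, rose by 0.30 (SE 0.084, adjusted p = 0.0462). CHAC1, a glutathione-degrading enzyme and ATF4 target, fell by 1.14 (SE 0.25, adjusted p = 0.0146), from a median of 5.55 CPM without FAC to 2.73 CPM with it. DDIT3, which encodes the transcription factor CHOP, had 0.62 (SE 0.20) with an adjusted p of 0.0705. Of 6 tested mRNAs known to be cut by IRE1 (a seventh was too low to test), 1 fell, HGSNAT, a lysosomal acetyltransferase, by 0.36 (SE 0.084, adjusted p = 0.0190). Of the 6, 4 were above 0, and the list median was 0.10.

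The cytosolic heat shock chaperones, the counterparts outside the ER, were the list with the most calls for its size, with 4 of 12 lower and none higher by edgeR (DESeq2 called 1 higher). The list did not fall as a whole: 5 of the 12 were above 0, and the median log2 fold change was -0.03. HSPA8, the constitutive HSP70, had 1129 ± 109.5 CPM in vehicle and 1023 ± 270.0 with oleic acid, against 456.8 ± 68.4 with FAC and 392.9 ± 55.5 with both, and fell by 1.34 (SE 0.14, edgeR adjusted p = 1.6e-04). DNAJA1 fell by 0.93 (SE 0.15, adjusted p = 0.00210) and DNAJB1 by 0.73 (SE 0.13, adjusted p = 0.00436), both J-domain partners of cytosolic HSP70. HSPA1B, the inducible HSP70, fell by 0.63 (SE 0.16, adjusted p = 0.0264), a value that is uncertain because HSPA1A and HSPA1B are near-identical copies. The ER J-domain gene DNAJB9 and these cytosolic J-domain genes were thus called in opposite directions in the same libraries.

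**Figure D5:**
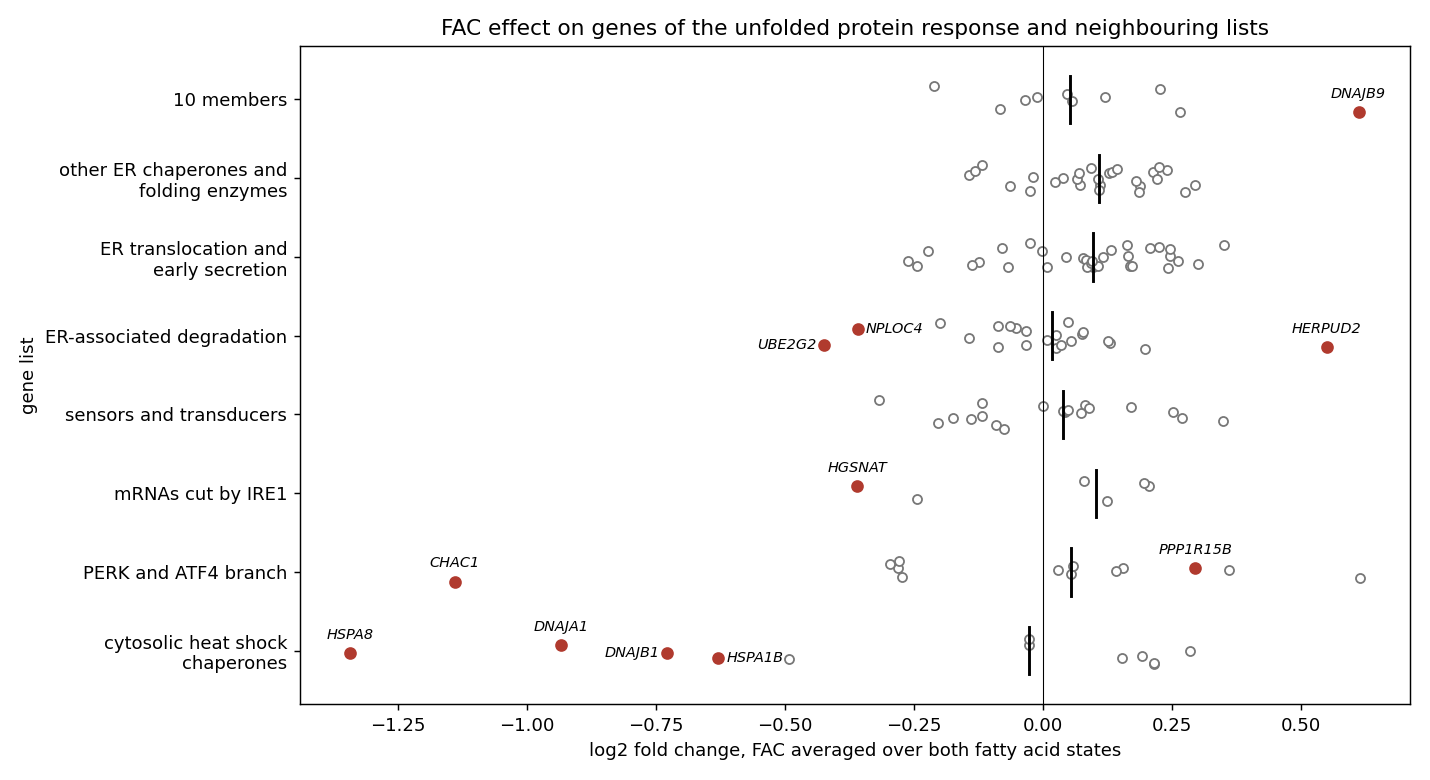
Log2 fold change for FAC averaged over both fatty acid states (x axis) of each tested gene in the 10-gene set and 7 related lists (y axis); filled red points passed an adjusted p of 0.05 over all genes, and black bars are list medians. DNAJB9 and HERPUD2 are the called genes farthest to the right, at 0.61 and 0.55, and HSPA8 is farthest to the left, at -1.34.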

How the data were processed

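The 12 HEK293 libraries (poly-A RNA-seq, TruSeq chemistry, RIN 10 in all samples, per the labels' protocols) fell into 4 groups of 3 by the treatment label. The deposited values are kallisto estimated counts, given as whole numbers for 36459 gene symbols and 188753 transcripts. The submitters' processing notes name kallisto 0.46.1, bcl2fastq 2.19, sleuth 0.30.0 and GRCh38.p12 (hg38), and the release of the transcript annotation is not given in the sources used here. Tests of the estimated counts were run in R 4.3.3 with edgeR 4.0.16 (filterByExpr, TMM, quasi-likelihood test, 1 fit of all 12 libraries, 8 contrasts, Benjamini-Hochberg over 14209 genes), and the code was tested on simulated data. Alternatives were DESeq2 1.42.0 and its size factors, limma-voom (limma 3.58.1), no low-count filter, the replicate number as a block, removal of the length trend, fits of 6 libraries, and leaving libraries out. CPM used TMM-scaled totals, and levels per kilobase used the count-weighted length of GENCODE release 29 transcripts, matched without version for 89.9% of transcripts. Where under 80% of a gene's counts matched, the longest protein-coding transcript was used. Correlations used log2 of CPM with a prior count. The XBP1 share was tested by two-sided exact permutation. Intervals are at the 95% level, and the floor is 3 counts. The genes, the related lists (ER chaperones, translocation and secretion, degradation, sensors, PERK and ATF4 branch, mRNAs cut by IRE1, cytosolic heat shock chaperones) and the cell type markers were chosen with earlier results of these data known. Named genes are the 10, up to 4 called genes of each list by size of change, the 5 genes most correlated with the mean of the 10, and the most abundant gene of each marker list, while ERP29, ERN1 and DDIT3 were added after their values were seen. Same-numbered libraries were compared by the correlation of their deviations from the group means: all 3 pairs exceeded 0.1 for oleic acid with FAC against oleic acid (0.296 to 0.612) and against FAC (0.221 to 0.340), which were read as paired from the data alone, and 2 of 3 for FAC against vehicle.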

Additional observations from a re-analysis of the deposited data

How the results depend on the processing

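Over 21 alternatives, 1650 values of the 10 genes were recomputed, of which 1630 stayed on the same side of the threshold, 17 newly passed it, 2 no longer passed it, 1 passed it with the opposite sign and 150 changed sign between values that did not pass. The value of opposite sign was MANF in oleic acid with FAC against vehicle, -0.28 when the replicate block and the length correction were fitted together (adjusted p = 0.0491). With that joint setting the genes called numbered 5 in the FAC average (HSP90B1, DNAJB9, HERPUD1 and PDIA4 higher, MANF lower), 2 in FAC against vehicle, 2 in oleic acid with FAC against oleic acid and 2 against vehicle. With the replicate block alone they numbered 3 in the FAC average (HSP90B1, DNAJB9 and HERPUD1) and 1 in oleic acid with FAC against vehicle, and the block changed no other call. DESeq2 called 2 in the FAC average (DNAJB9 and HERPUD1) and 1, DNAJB9, in oleic acid with FAC against vehicle, as did DESeq2's size factors (1) and the length correction (1). Only the 6 libraries compared gave 0 in oleic acid with FAC against oleic acid. Leaving out 1 library gave 0 to 1 there (0 without the first oleic acid library) and 0 to 1 in oleic acid with FAC against vehicle (1 without the third oleic acid or the first vehicle library). For the XBP1 spliced share over 6 against 6 libraries it gave 12.6 to 22.5 percentage points, and pairing by replicate number gave the same 16.9 points (exact sign permutation p = 0.156, smallest possible 0.03125). The count over all genes moved more. In FAC against vehicle it was 169, with 27 to 79 when any of its own libraries was left out, 299 without the third oleic acid library, 351 with 6 libraries, 431 with the block, 449 with the length correction, 498 with DESeq2, 672 without both libraries that stood apart and 1122 under the joint setting. In the FAC average it was 1244, with 738 to 1810 when 1 library was left out (738 to 765 without the third FAC, the second vehicle or the third vehicle library), 2143 without that pair, 2211 with the block, 2279 with the length correction and 3708 jointly. In oleic acid with FAC against oleic acid it was 314, with 55 to 449 when 1 library was left out (55 to 173 without any single library of oleic acid with FAC or the first or second of oleic acid, 184 to 206 without the second vehicle, the third vehicle or the third FAC library), 19 with 6 libraries, 740 with the block, 761 with DESeq2, 795 with the length correction and 1965 jointly. In oleic acid with FAC against vehicle it was 436, with 62 to 1026 when 1 library was left out (62 to 184 without the second or the third library of either group, 1026 without the third oleic acid library), then 162, 1528, 1261, 1067 and 2463 in that order, and 704 without the pair that stood apart. The cause of these shifts was not tested. Of the 12 libraries, 11 correlated best with a library of their own number. The binomial intervals of the XBP1 spliced share treat each estimated count as an observed read. The effect of assigning counts between forms that share sequence was not tested.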
